A study of Rattus norvegicus with 14 samples.

Results

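Matrix proteases and their inhibitors were examined in thoracic aorta samples of Sprague-Dawley rats, 8 with adenine-induced chronic renal failure (A-CRF) and 6 labelled Control, each on 1 array. The set held 9 genes, chosen by name: the cathepsin Ctsk, the matrix metalloproteinases Mmp2, Mmp14, Mmp3 and Mmp9, the aggrecanase-type protease Adamts1 and the tissue inhibitors Timp1, Timp2 and Timp3. All 9 were measured, by 16 of the 31042 probe sets tested, and stood among 14217 named genes. A probe set is the group of short probes on the array that report 1 transcript, and where a gene had several, the one with the highest mean over the 14 arrays represented it. Both groups share the strain and the tissue, and the labels separate them by treatment alone. The sources used here give no adenine dose or duration, no age and no sex. They also do not say that the samples came from different animals, so the p-values reflect sample-to-sample spread that may be technical. Whole aortic tissue was used, in which fewer cells of a type and less RNA per cell cannot be told apart.

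The wall of the aorta takes its strength from collagen and its recoil from elastic fibres. Matrix metalloproteinases are zinc enzymes that are made as inactive precursors and cut collagens, gelatin, proteoglycans and other matrix proteins. The membrane-bound enzyme encoded by Mmp14 activates the precursor of the gelatinase encoded by Mmp2, and TIMP2 takes part in that step while also inhibiting the active enzymes. Cathepsin K, the product of Ctsk, is a cysteine protease best known from osteoclasts that cuts collagen and elastin. TIMP proteins bind the active site of metalloproteinases, and TIMP3, which stays attached to the matrix, also inhibits enzymes of the ADAM and ADAMTS families.

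Values are the authors' deposited probe set signals, used as log2 units, and a change is the A-CRF mean minus the Control mean. The deposited table ran from 4.82 to 12.64, and in 7 of the 9 genes the Control mean exceeded its lowest value by more than 1 log2 unit. Arrays A-CRF 1, A-CRF 4 and Control 1 stood apart in the GAPDH 3' minus 5' difference, a measure of RNA quality, at 1.90, 1.63 and 1.58 log2 units, against 0.37 to 0.55 on the other 11 arrays. Smooth muscle markers, which define the tissue, were all present, with list means of 9.66 to 10.12 on A-CRF arrays and 9.90 to 10.58 on Control arrays.

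Ctsk, Mmp2 and Mmp14 rose in A-CRF aortas. Timp1 and Timp2 also had positive changes, that of Timp1 as large as that of Mmp14, but these did not pass an adjusted p of 0.05. Mmp3 and Mmp9 lay near the lowest value of the table in both groups, and Adamts1 and Timp3 had negative changes that did not pass. So 3 of the 9 genes were higher and 0 lower in limma. An unadjusted p under 0.05 was found in 5 of the 9, against 2647 of all 14217 named genes. Over all named genes 1.93% were higher and 1.06% lower, and over all probe sets 2.05% passed, 1.26% higher and 0.789% lower. Among the 8123 named genes with a Control mean more than 1 log2 unit over the lowest value, these shares were 2.57% higher and 1.72% lower. The median change of the 9 genes was 0.36 log2 units, against -0.0012 over all 14217 genes. The 9 genes were chosen with earlier results of these data known, so these counts and medians describe the set and do not test it. In 3 of the 9 genes, Ctsk, Mmp2 and Timp1, every A-CRF array lay above every Control array, as in 1.46% of all named genes.

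**Figure D1:**
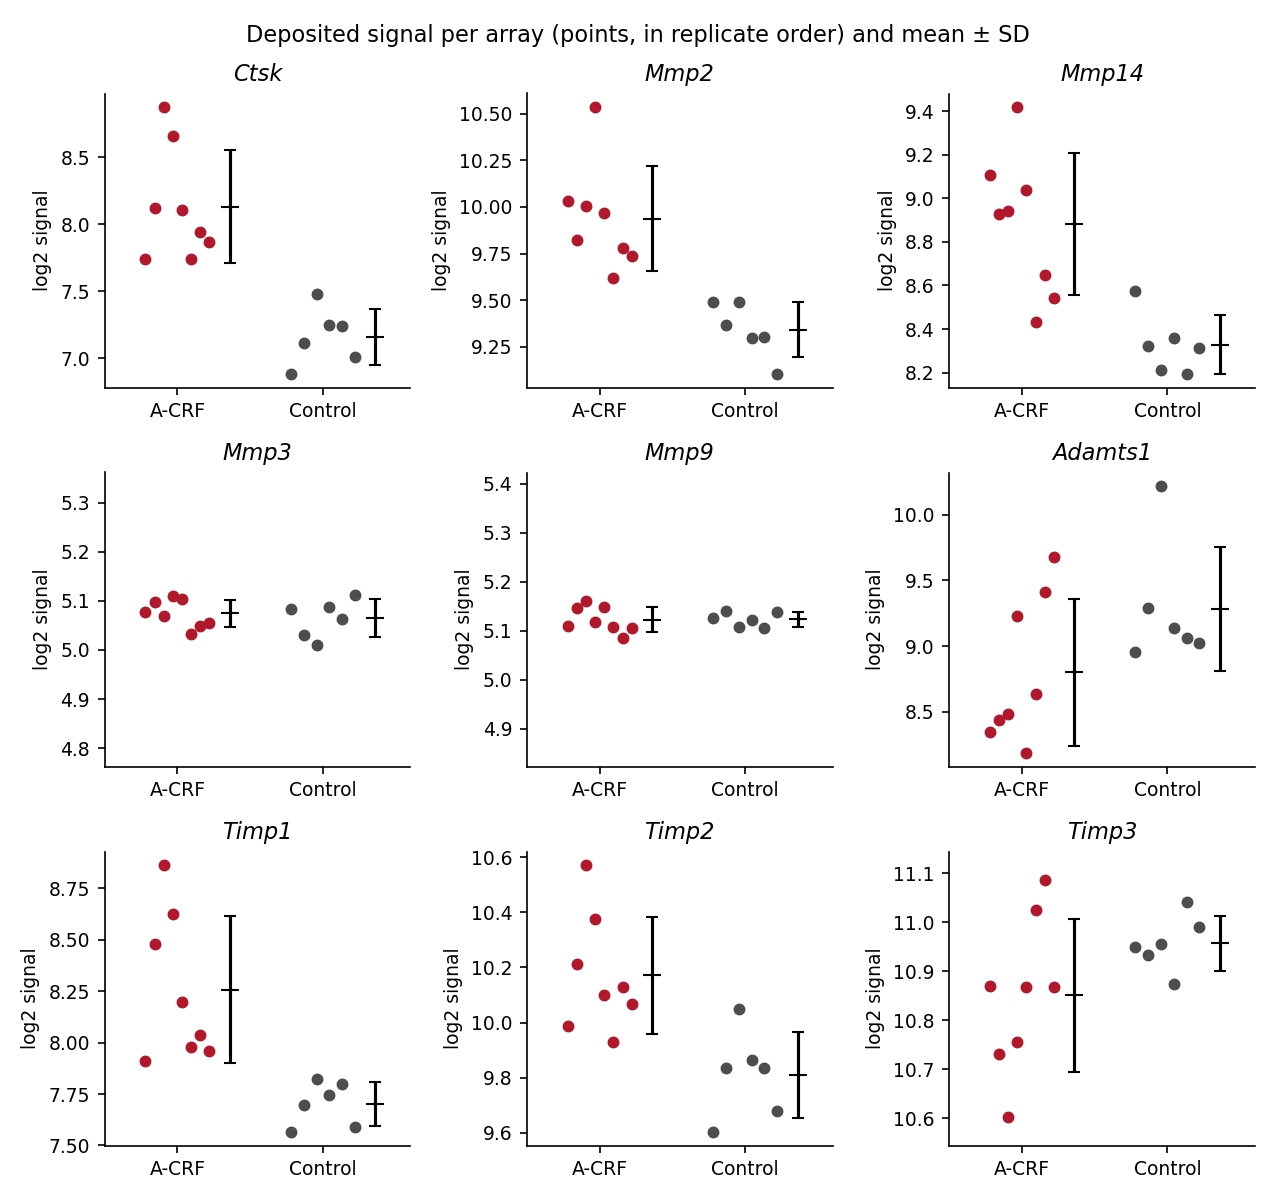
Deposited log2 signal (vertical axis) of the probe set that represents each of the 9 genes, with 1 point per array, A-CRF in red and Control in grey, and the mean with its SD beside the points. The vertical axes differ between panels and do not start at 0. The 8 A-CRF arrays lie above all 6 Control arrays for Ctsk, Mmp2 and Timp1, and the Mmp3 and Mmp9 points stay between 5.01 and 5.16.

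Ctsk had the largest rise of the 9 genes. Its signal was lowest at 7.74, with a median of 8.02 and a highest value of 8.87, on A-CRF arrays, against 6.88, 7.18 and 7.48 on Control arrays. The groups did not overlap, and A-CRF 3 and A-CRF 4 (8.87 and 8.65) stood above the other A-CRF arrays (7.74 to 8.12). A-CRF arrays averaged 8.13 ± 0.42 (SD, n = 8) and Control arrays 7.16 ± 0.21 (SD, n = 6), a 1.96-fold higher level, with a change of 0.97 ± 0.17 log2 units (SE, limma adjusted p = 0.014). Ctsk passed whichever of the 14 arrays was left out (highest adjusted p = 0.034).

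Mmp2, which encodes the gelatinase made by smooth muscle cells and fibroblasts, was 9.62 at its lowest, 9.89 at the median and 10.54 at its highest on A-CRF arrays. On Control arrays these values were 9.10, 9.34 and 9.49. All A-CRF arrays were above all Control arrays, and A-CRF 4 was the highest, with the next A-CRF array at 10.03. The change was 0.59 ± 0.12 log2 units (SE, 95% interval 0.34 to 0.85, adjusted p = 0.021), 1.51-fold. The call was lost without Control 5 or Control 6 (adjusted p = 0.051 for each). When the 2 probe sets of Mmp2 were averaged the change was 0.29, still past the threshold (adjusted p = 0.029).

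Mmp14, the membrane-bound activator of that gelatinase, ranged from 8.43 to 9.42 on A-CRF arrays with a median of 8.94, and from 8.19 to 8.57 on Control arrays with a median of 8.32. The groups overlapped through A-CRF 6 and A-CRF 8 (8.43 and 8.54), which lay under Control 1 (8.57), and the other 6 A-CRF arrays were above all Control arrays. The change was 0.55 ± 0.13 log2 units (SE, adjusted p = 0.047), 1.47-fold. This call was close to the threshold. Leaving out 1 array ended it in 10 of 14 cases, namely A-CRF 1, 2, 3 and 5 and each Control array (adjusted p up to 0.11). It also ended with an offset on the linear scale or the mean of the probe sets (0.053 and 0.051). Of 11 settings other than a single left-out array, the Mmp14 call held in 7. Among these were the GAPDH difference as a covariate (limma adjusted p = 0.012) and the fit without the 3 arrays of highest GAPDH difference (0.036).

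Mmp3 encodes stromelysin, which cuts proteoglycans and activates other metalloproteinases, and Mmp9 the gelatinase of neutrophils and macrophages. The Mmp3 signal was 5.03 to 5.11 on A-CRF arrays and 5.01 to 5.11 on Control arrays, a change of 0.0095 ± 0.0190 log2 units (SE). The Mmp9 signal was 5.09 to 5.16 on A-CRF arrays and 5.11 to 5.14 on Control arrays, and its change was -0.00096 (95% interval -0.032 to 0.030). Both genes lay among the dimmest probe sets, at percentiles 5.80 and 9.89 of mean signal, so no change in them was detectable and a low level cannot be told apart from background here. Markers of neutrophils were near the lowest value as well, with S100a8, S100a9, Cxcr2 and Camp all within 1 log2 unit of it in both groups.

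Adamts1, a secreted protease that cuts the proteoglycans aggrecan and versican, was the most variable of the 9 genes. Its A-CRF values ran from 8.19 through a median of 8.56 to 9.68, and its Control values from 8.96 through 9.10 to 10.22. On 5 A-CRF arrays, A-CRF 1, 2, 3, 5 and 6, the signal was below all Control arrays (8.19 to 8.64), while A-CRF 4, 7 and 8 lay within the Control range (9.23, 9.42 and 9.68). A-CRF arrays averaged 8.80 ± 0.56 (SD, n = 8) and Control arrays 9.28 ± 0.47 (SD, n = 6), and the change of -0.48 ± 0.26 log2 units (SE, 95% interval -1.04 to 0.08) did not pass (adjusted p = 0.45).

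Timp1, the secreted inhibitor induced by cytokines and growth factors, was lowest at 7.91, with a median of 8.12 and a highest value of 8.86, on A-CRF arrays. On Control arrays the lowest, median and highest values were 7.56, 7.72 and 7.82, so the groups did not overlap. A-CRF 2, 3 and 4 (8.48, 8.86 and 8.63) were above the other A-CRF arrays (7.91 to 8.20). The change of 0.55 ± 0.14 log2 units (SE, 95% interval 0.25 to 0.86) was as large as that of Mmp14 and missed the threshold (adjusted p = 0.060). It passed without A-CRF 1, where the change was 0.60 (adjusted p = 0.034), and when dim probe sets were left out (0.040), with the trend and robust options (0.044) or with array weights (0.045).

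Timp2 ranged from 9.93 to 10.57 on A-CRF arrays with a median of 10.11, and from 9.60 to 10.05 on Control arrays with a median of 9.83. Only A-CRF 1 and A-CRF 6 (9.99 and 9.93) fell within the Control range. The change was 0.36 ± 0.10 log2 units (SE, 95% interval 0.16 to 0.57, adjusted p = 0.071). It passed without A-CRF 1 (adjusted p = 0.050, just under the threshold), with dim probe sets left out (0.048), with array weights (0.050) and with the mean of its probe sets (0.046).

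Timp3 lay at 10.60 to 11.08 on A-CRF arrays with a median of 10.87, and at 10.87 to 11.04 on Control arrays with a median of 10.95. Its 6 lowest arrays were all A-CRF, whereas A-CRF 6 and A-CRF 7 (11.02 and 11.08) were above the Control median. The change was -0.11 ± 0.06 log2 units (SE, 95% interval -0.24 to 0.03) and did not pass (limma adjusted p = 0.51). Its estimate was negative where those of Timp1 and Timp2 were positive, but its interval included 0, so its direction is not settled.

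**Figure D2:**
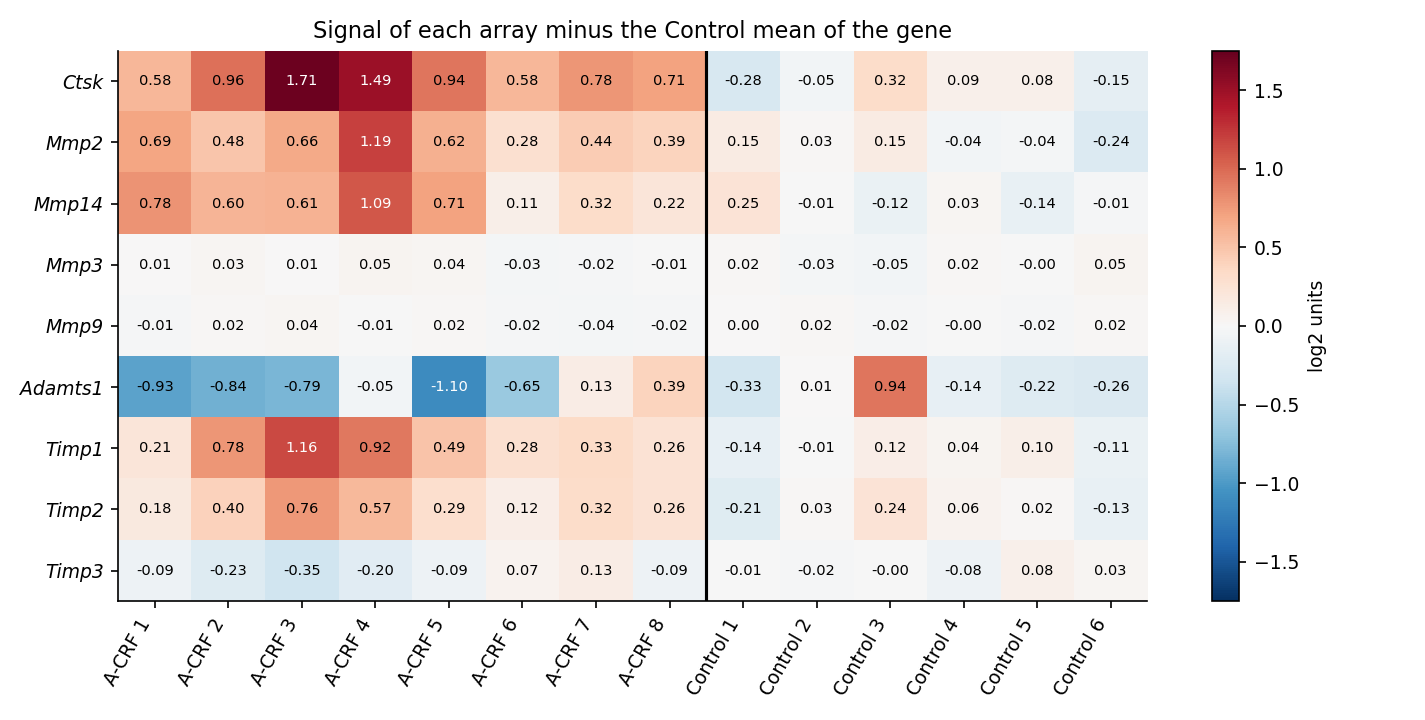
Signal of each array minus the Control mean of the gene in log2 units, with the 9 genes as rows and the 14 arrays as columns, A-CRF left of the line and Control right of it. Ctsk, Timp1 and Timp2 are highest on A-CRF 3, Mmp2 and Mmp14 on A-CRF 4, and Adamts1 on Control 3.

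The genes fell into patterns across the A-CRF arrays. Ctsk, Timp1 and Timp2 all had A-CRF 3 as their highest array and A-CRF 4 as the next. After each group's mean was subtracted, the correlation over the 14 arrays was 0.96 between Ctsk and Timp2, 0.95 between Ctsk and Timp1 and 0.90 between Timp1 and Timp2. Mmp2 and Mmp14 formed another pair at 0.84, with A-CRF 4 the highest array for each, while Mmp14 and Ctsk reached 0.39. A-CRF 4 and A-CRF 1, both of high GAPDH difference, had the highest signals of Mmp2 (10.54 and 10.03) and of Mmp14 (9.42 and 9.11). Timp3 ran against Ctsk (-0.69), and Adamts1 was at 0.14 with Ctsk and -0.32 with Mmp14. These correlations describe deviations that share arrays and their RNA quality, and no test was made of them.

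Among the other named genes that exceeded the lowest value by the same margin (8122 for each member), the nearest to Ctsk by the same measure were the lysosomal fucosidase gene Fuca1 (r = 0.97), Timp2 (0.96) and the serine carboxypeptidase gene Scpep1 (0.96). For Mmp2 they were Chpf (0.95), which acts in chondroitin chain synthesis, the TNF receptor gene Tnfrsf1a (0.95) and Mxra8 (0.95). For Mmp14 they were Adamts12 (0.93), the cell cycle inhibitor Cdkn1a (0.92) and Furin (0.92), the proprotein convertase that cuts the MMP14 precursor. Of these 9 entries Scpep1, Adamts12 and Cdkn1a also rose (adjusted p = 0.0089, 0.018 and 0.027), and the others did not pass.

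Promoter sequences are shown for Ctsk, Timp1 and Timp2, whose values deviated together across arrays. They are RefSeq sequences of the rat build GRCr8, each with 250 bases before and 50 after the gene's start, and the table held 6 of the 9 members, without Mmp2, Mmp14 and Mmp9. The motifs searched, on both strands, were the TATA box spelled TATAAA, which 14.2% of all 33469 promoters of this length held, and the CCAAT box, held by 37.5%. The GC box was spelled GGGCGG and held by 33.1% of all promoters. The AP-1 motif was spelled TGANTCA and held by 7.33% of all promoters. The core bound by PU.1 was spelled GAGGAA and held by 27.6% of all promoters. Capitals mark the matches, none of which overlapped another.
Ctsk (GRCr8, chr2:185747298-185747597, plus strand): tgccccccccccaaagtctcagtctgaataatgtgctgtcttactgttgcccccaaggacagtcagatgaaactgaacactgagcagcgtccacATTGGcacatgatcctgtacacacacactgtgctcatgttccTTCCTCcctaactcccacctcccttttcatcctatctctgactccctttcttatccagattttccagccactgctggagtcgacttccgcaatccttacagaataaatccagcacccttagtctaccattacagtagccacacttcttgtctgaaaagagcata
Timp1 (GRCr8, chrX:3771073-3771372, minus strand): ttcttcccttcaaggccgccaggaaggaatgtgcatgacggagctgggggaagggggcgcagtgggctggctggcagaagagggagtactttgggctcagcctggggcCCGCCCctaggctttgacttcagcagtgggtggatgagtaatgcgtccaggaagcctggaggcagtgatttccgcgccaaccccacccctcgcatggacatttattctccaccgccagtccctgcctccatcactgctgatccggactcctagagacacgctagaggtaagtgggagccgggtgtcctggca
Timp2 (GRCr8, chr10:104089165-104089464, minus strand): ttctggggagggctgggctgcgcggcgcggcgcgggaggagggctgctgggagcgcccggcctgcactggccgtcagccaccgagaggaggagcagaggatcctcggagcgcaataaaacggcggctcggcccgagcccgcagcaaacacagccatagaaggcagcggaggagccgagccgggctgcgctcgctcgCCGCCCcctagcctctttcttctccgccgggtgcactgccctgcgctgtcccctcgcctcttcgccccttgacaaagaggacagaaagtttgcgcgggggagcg

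In these windows the Ctsk promoter held 1 CCAAT box match and 1 PU.1 core match, both on the opposite strand, and the promoters of Timp1 and Timp2 held 1 GC box match each. None of the 5 motifs was found in all of these promoters. The Mmp3 promoter was the only one of the 6 with an AP-1 match, 1 starting 71 bases before the gene's start. This motif reads the same on both strands, so its match has no strand. In Adamts1 2 GC box matches, 1 CCAAT box match and 1 TATA box match were found, and in Timp3 3 GC box matches and 1 CCAAT box match. The windows of Ctsk and Timp2 differed in base composition, at 48.3% and 70.3% G or C. A match is a description of letters and was not tested as a binding site.

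A difference in change between probe sets of a gene passed for Mmp2, Mmp14 and Timp2. The calls of Mmp14 and Timp2 ended in 4 and 3 of the 14 fits without 1 array. The difference in change between the representative and each other probe set was tested on the 7 such pairs with an exact two-sided permutation test over the 3003 splits of the arrays, adjusted over the 7 pairs. For Mmp2 the bright probe set 1370301_at changed by 0.59, and the dim one, 1369825_at, by -0.0060 (95% interval -0.067 to 0.055), with 5.34 to 5.46 on A-CRF arrays and 5.34 to 5.53 on Control arrays. The dim probe set had a Control mean of 5.40, within 1 log2 unit of the lowest value of the table. The difference of 0.60 log2 units between them passed (exact permutation test, adjusted p = 0.0023). It is close to the change of the bright probe set itself, and is no separate evidence that the 2 probe sets disagree.

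For Mmp14 both probe sets had a positive change, and the arrays were ordered alike (r = 0.92 of group-centred values). The second probe set, 1378225_at, was at 6.75 to 7.49 on A-CRF arrays and 6.50 to 6.83 on Control arrays, and its change of 0.36 ± 0.10 log2 units (SE) did not pass (adjusted p = 0.080). That change passed in 1 of 14 fits without 1 array and in 3 of 10 other settings. These 3 were array weights (limma adjusted p = 0.044), the GAPDH covariate (0.023) and the fit without the 3 arrays of highest GAPDH difference (0.027). The change was larger by 0.19 on the representative probe set (exact permutation test, adjusted p = 0.027), a call that ended without Control 1, 2, 3 or 6 and without the 3 arrays of highest GAPDH difference (adjusted p up to 0.076). For Timp2 the second probe set, 1367823_at, lay at 6.17 to 6.36 on A-CRF arrays and 6.13 to 6.26 on Control arrays. It changed by 0.09 ± 0.03 (SE, adjusted p = 0.13), less by 0.27 than the representative one (exact permutation test, adjusted p = 0.027), and this call ended without Control 1, 2 or 6 (adjusted p up to 0.065). Both second probe sets were dimmer than the representative ones, with Control means of 6.63 against 8.33 for Mmp14 and 6.17 against 9.81 for Timp2. The part of this dimness in their smaller changes was not tested.

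The 4 probe sets of Timp3 all had negative changes between -0.11 and -0.02, and over all 14 arrays none of the other 3 passed the test of a difference from the representative one (exact permutation test, adjusted p = 0.77 to 0.92). The dimmest, 1368989_at, was low on the 3 arrays of highest GAPDH difference, with 5.86 on A-CRF 1 and 5.77 on A-CRF 4 against 6.45 to 6.84 on the other A-CRF arrays, and 5.93 on Control 1 against 6.35 to 6.64 on the other Control arrays. Probe set 1372926_at was also lowest in each group on these arrays, with 7.71 and 7.73 on A-CRF 1 and A-CRF 4 and 7.90 on Control 1. The brightest, 1389836_a_at, did not show this, with 10.87 and 10.76 on A-CRF 1 and A-CRF 4 and 10.95 on Control 1. Without these 3 arrays the changes of 1368989_at and 1372926_at had the opposite sign (0.07 and 0.0035). The change of the representative probe set minus that of 1368989_at was then -0.17 and passed (exact permutation test, adjusted p = 0.045), against -0.086 over all arrays. The part of transcript length in the gap was not tested. The 2 probe sets of Mmp9 changed by -0.00096 and -0.012 and their difference did not pass the exact permutation test (adjusted p = 0.77).

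**Figure D3:**
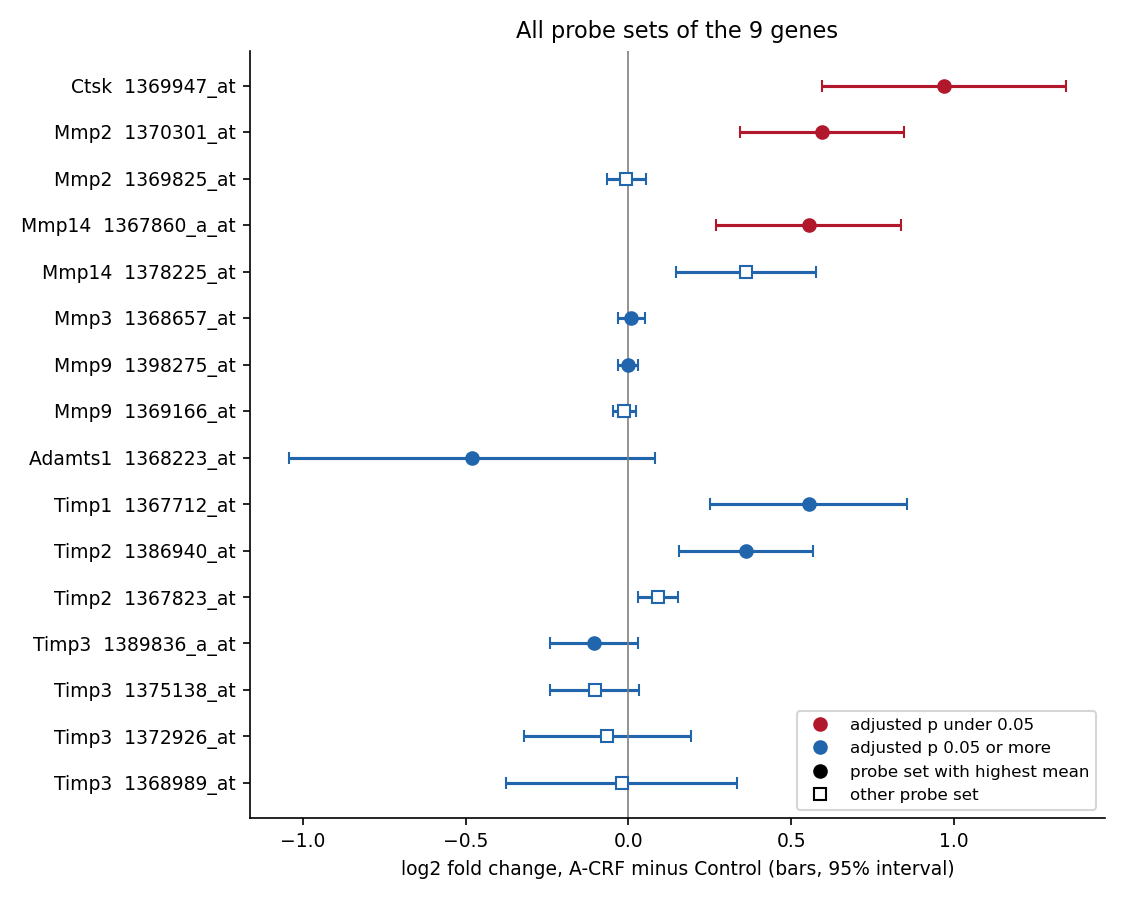
Log2 fold change of A-CRF minus Control with its 95% interval for all 16 probe sets of the 9 genes. Filled circles are the probe sets with the highest mean and open squares the others, and red marks an adjusted p under 0.05, which 3 probe sets reached, those of Ctsk, Mmp2 and Mmp14.

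**Figure D4:**
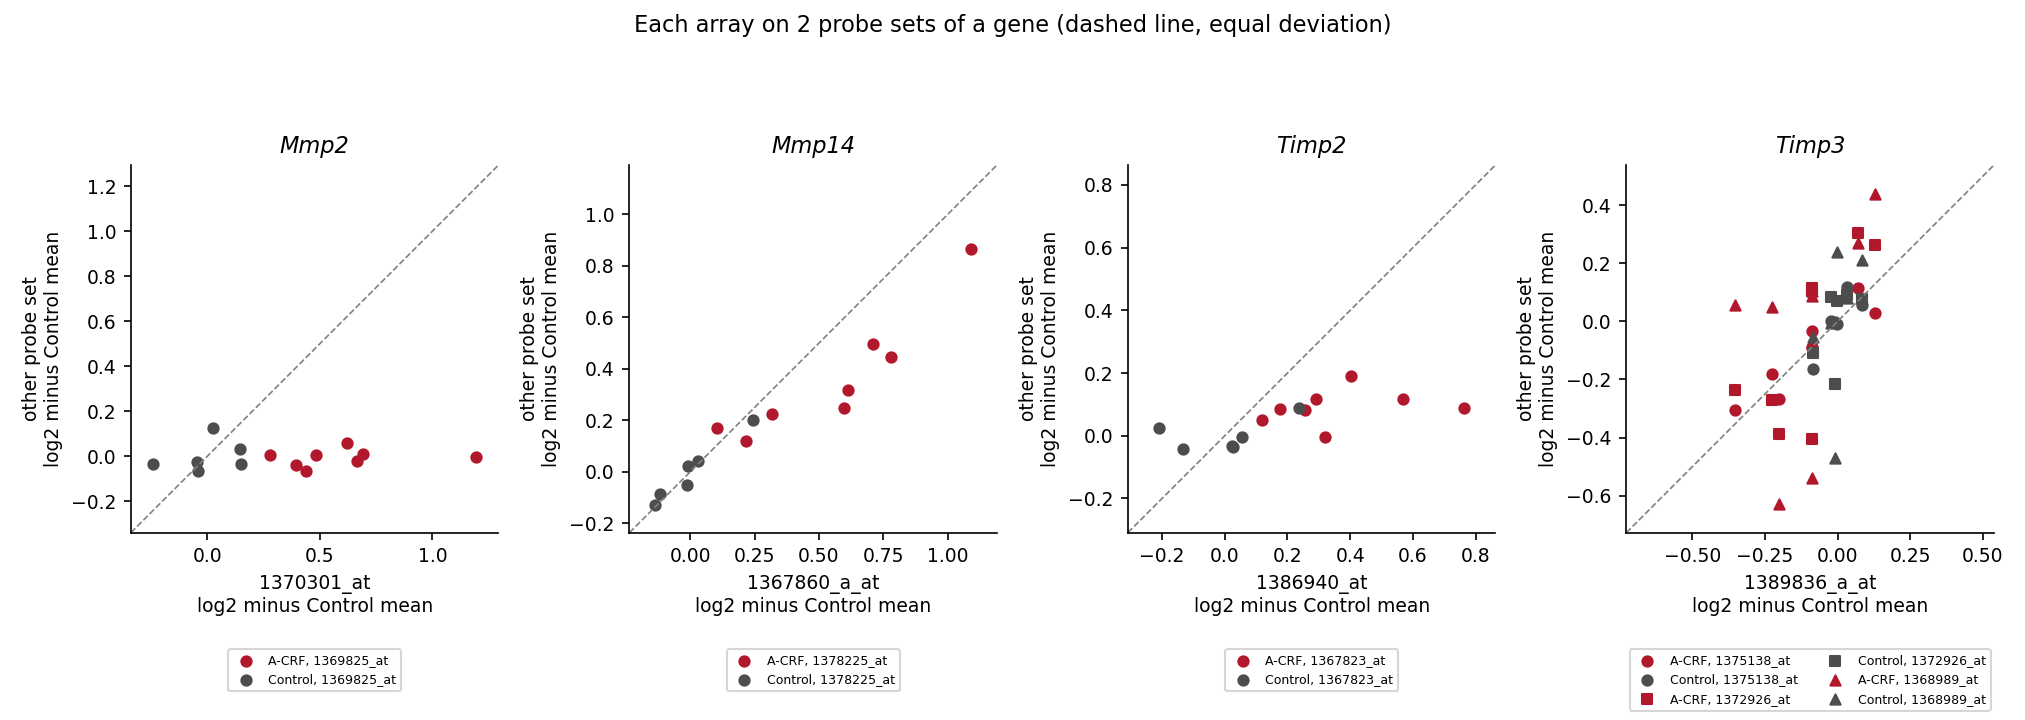
Signal of each array minus the Control mean on the representative probe set (horizontal axis) and on the other probe sets of the gene (vertical axis), in log2 units, A-CRF in red and Control in grey. The Mmp2 points lie flat, with the second probe set staying between -0.07 and 0.13, the Mmp14 points of A-CRF arrays other than A-CRF 6 lie below the dashed line of equal deviation, and the Timp2 points flatten on the A-CRF arrays.

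To ask whether a protease and its inhibitor changed unequally, their difference was taken on each array for 5 pairs and compared between groups with the same exact permutation test, adjusted over the 5 pairs. Mmp2 minus Timp2 was higher by 0.23 log2 units in A-CRF, averaging -0.23 ± 0.24 on A-CRF arrays (SD, n = 8) and -0.47 ± 0.18 on Control arrays (SD, n = 6), and did not pass (exact permutation test, adjusted p = 0.13). Control 1 stood alone in this pair at -0.11, and without it the difference was 0.30 (adjusted p = 0.030). It was 0.19 without the 3 arrays of highest GAPDH difference, Control 1 among them (adjusted p = 0.025). Mmp14 minus Timp2 was higher by 0.19 and Adamts1 minus Timp3 lower by 0.37, each with an adjusted p of 0.23 (exact permutation test). Mmp9 and Mmp3 minus Timp1 were lower in A-CRF by 0.56 and 0.54 (exact permutation test, adjusted p = 0.0058 for each). Mmp9 and Mmp3 lay near the lowest value on every array, so these 2 differences are close in size to the change of Timp1 itself (0.55).

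Other genes of the same enzyme and inhibitor classes were read from the same fit. The wider list named 96 genes beside the 9, of which 75 were measured and 47 exceeded the lowest value by that margin. Of the 75, 11 were higher, 2 lower and 62 did not pass, against 1.93% higher and 1.06% lower over all named genes, and the median change was 0.02. This list was also chosen with earlier results of these data known, so its counts describe it and do not test it. The count of higher genes was 6 without A-CRF 5 and 7 without Control 4.

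Cathepsins held the most rises, in 4 of 13 measured genes, against 1.93% of all named genes. The class median was 0.21, and the change was positive in 12 of 13, against 6935 of all 14217 named genes. Ctss, the elastin-cutting cathepsin of antigen-presenting cells, rose by 0.65 ± 0.09 log2 units (SE, adjusted p = 0.0046), at 8.28 to 8.98 on A-CRF arrays and 7.73 to 8.04 on Control arrays. Ctsh, an aminopeptidase, rose by 0.50 ± 0.10 (adjusted p = 0.020), and the lysosomal endopeptidases Ctsb and Ctsl by 0.30 ± 0.07 and 0.28 ± 0.06. In 5 of the 13, these 4 genes and Ctsa, every A-CRF array lay above every Control array, as in 1.46% of all named genes. Among those that did not pass, Ctsa, a serine carboxypeptidase, had the largest change (0.35 ± 0.11, adjusted p = 0.11). The calls of Ctss and Ctsh held in each fit without 1 array, while that of Ctsb was lost in 7 of them (highest adjusted p = 0.087) and that of Ctsl in 3 (0.054). The Ctsl change was 0.14 with the mean of its probe sets and did not pass (adjusted p = 0.22). Ctsb did not pass with quantile normalization (adjusted p = 0.079) or without the 3 arrays of highest GAPDH difference (0.059).

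Of 11 genes of the plasminogen system and serine proteases, 3 were higher, against 1.93% of all named genes. Plat, the tissue plasminogen activator, rose by 0.65 ± 0.12 log2 units (SE, adjusted p = 0.014). Plau, the urokinase activator, rose by 0.29 ± 0.04 (adjusted p = 0.0035), at 6.18 to 6.45 on A-CRF arrays and 5.95 to 6.08 on Control arrays. Htra1, a secreted serine protease, rose by 0.50 ± 0.10 (adjusted p = 0.026), and Prss23 had a change of 0.44 ± 0.11 that did not pass (adjusted p = 0.058). With the mean of its probe sets the change of Plau was 0.18 and still passed (adjusted p = 0.0040). The calls of Plat and Plau held in each fit without 1 array, and that of Htra1 was lost in 5 (highest adjusted p = 0.062).

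Of 17 ADAM and ADAMTS genes, 2 were higher, against 1.93% of all named genes. These were Adamts12 (0.42 ± 0.08 log2 units, SE, limma adjusted p = 0.018) and the membrane sheddase Adam17 (0.33 ± 0.07, adjusted p = 0.029). The aggrecanase Adamts5 did not pass (0.25 ± 0.06, adjusted p = 0.053). Of 13 other metalloproteinases, only 7 had a Control mean more than 1 log2 unit over the lowest value. None of the 13 was higher and 2 were lower, both membrane-type, against 1.93% higher and 1.06% lower over all named genes. Mmp16 changed by -0.37 ± 0.09 (adjusted p = 0.043), at 5.67 to 6.15 on A-CRF arrays and 6.05 to 6.59 on Control arrays. Mmp15 changed by -0.12 ± 0.03 (adjusted p = 0.039), at 5.84 to 5.98 on A-CRF arrays and 5.94 to 6.08 on Control arrays. These genes lost the call in 12 and 11 of the 14 fits without 1 array (highest adjusted p = 0.10 and 0.086). The macrophage elastase Mmp12 had a change of 0.20 ± 0.11 that did not pass. None of 3 astacin genes passed, and only 1 of them, the procollagen C-proteinase gene Bmp1 (0.15 ± 0.06), exceeded the lowest value by that margin.

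Among 18 other inhibitors, 2 were higher, against 1.93% of all named genes. Serpine2, which inhibits thrombin and plasminogen activators, rose by 0.52 ± 0.09 log2 units (SE, adjusted p = 0.010), at 9.79 to 10.34 on A-CRF arrays and 9.39 to 9.70 on Control arrays. Cst3, the secreted inhibitor of cysteine cathepsins, rose by 0.28 ± 0.06 (limma adjusted p = 0.036). Every A-CRF array lay above every Control array for Cst3, as in 1.46% of all named genes. Serping1, the inhibitor of complement C1 proteases, had the largest change that did not pass (0.64 ± 0.22, adjusted p = 0.16). The call of Serpine2 held in each fit without 1 array and that of Adamts12 likewise, whereas those of Cst3 and Adam17 were lost in 10 and 7 (highest adjusted p = 0.084 and 0.063).

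**Figure D5:**
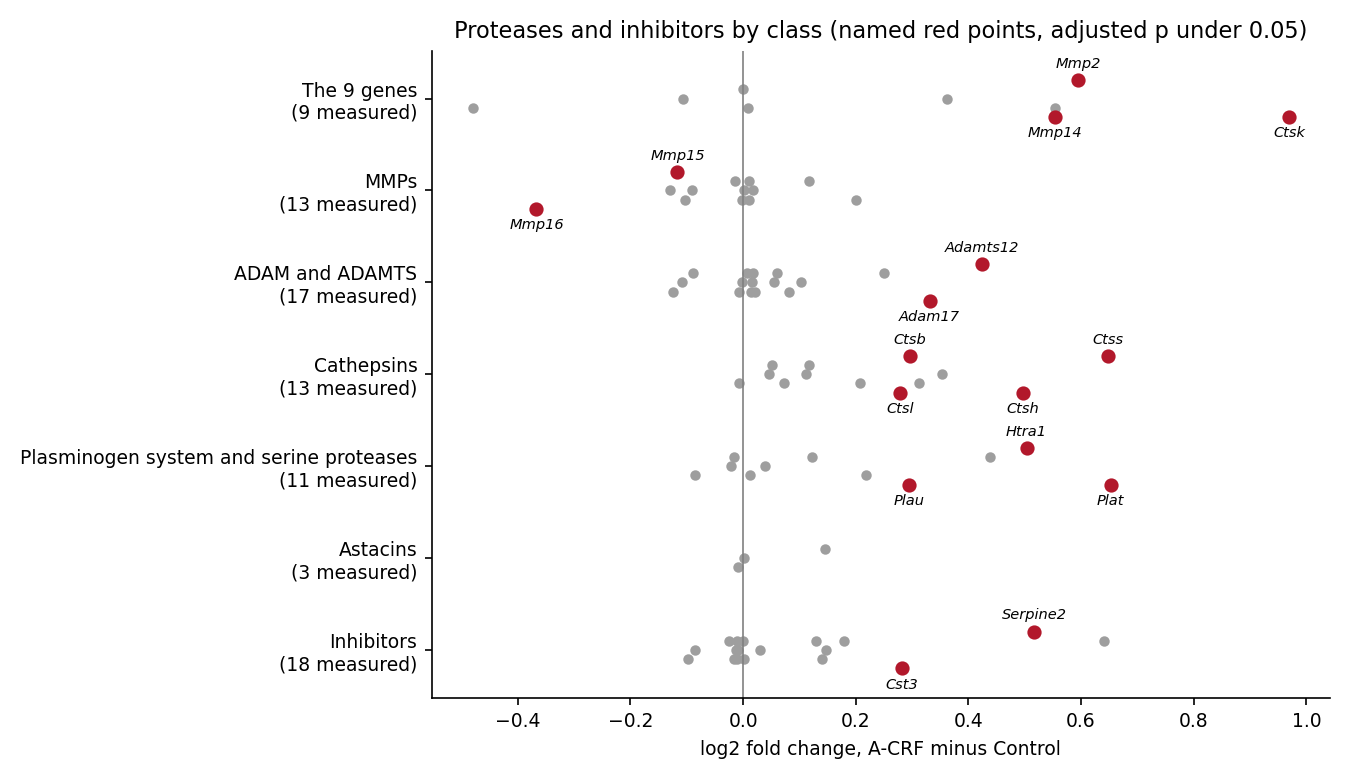
Log2 fold change of A-CRF minus Control (horizontal axis) for the 9 genes and for the measured genes of 6 further classes, 1 point per gene. Named red points passed an adjusted p of 0.05 and grey points did not. The named cathepsins, Plat, Plau and Serpine2 lie to the right of 0, and Mmp15 and Mmp16 to the left.

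Markers of other cells were read beside these changes. Of 15 macrophage markers 9 were higher and 0 lower, against 1.93% higher and 1.06% lower over all named genes. The log2 of their summed signal was 11.41 to 12.12 on A-CRF arrays and 11.06 to 11.24 on Control arrays. Fcgr2b was the only macrophage marker near the lowest value in both groups. A-CRF 3 and A-CRF 2 had the highest sums (12.12 and 11.98). By the mean of the markers, the highest arrays were A-CRF 3 and A-CRF 4 (7.37 and 7.32), which were also the highest for Ctsk, Timp1 and Timp2. Of 6 osteoclast markers only Acp5 and Calcr were measured. Acp5 rose (0.34 ± 0.08 log2 units, SE, adjusted p = 0.036) from a Control mean of 5.60, itself within 1 log2 unit of the lowest value. Calcr was near the lowest value in both groups. None of the 7 measured fibroblast markers passed, with a median change of 0.07 and a summed signal of 12.44 to 12.72 on A-CRF arrays and 12.43 to 12.64 on Control arrays. White adipocyte markers varied more, at 9.65 to 11.77 on A-CRF arrays and 10.99 to 11.88 on Control arrays, with none of 6 past the threshold and Lep near the lowest value. Of 7 smooth muscle markers, 1 was lower, Myh11 by -0.29 ± 0.07 (limma adjusted p = 0.043), and the median change was -0.26. Tagln (-0.26) and Cnn1 (-0.42) did not pass (limma adjusted p = 0.059 and 0.13), and only Des had a positive change (0.03). Summed signals of smooth muscle markers were 13.08 to 13.41 on A-CRF arrays and 13.39 to 13.87 on Control arrays. Of 5 skeletal muscle markers, 1 was lower, the muscle creatine kinase gene Ckm by -0.41 ± 0.08 (adjusted p = 0.023), with summed signals of 9.43 to 10.11 on A-CRF arrays and 9.69 to 9.99 on Control arrays and Myh4 and Tnnt3 near the lowest value. The part of these cells in the changes of the 9 genes was not tested by any separation of cell types.

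With the mean of the macrophage markers as a covariate, which did not overlap between groups (6.99 to 7.37 on A-CRF arrays, 6.67 to 6.81 on Control arrays), 0 probe sets of the whole table passed in limma and 1325 had an unadjusted p under 0.05, against 4477 without it. In that fit the change was 0.07 ± 0.24 log2 units for Ctsk (SE), 0.21 ± 0.22 for Mmp2, 0.06 ± 0.23 for Mmp14 and -0.26 ± 0.15 for Timp1. With the macrophage level 0 of the 9 genes had an unadjusted p under 0.05, against 5 without it. Because the macrophage level itself separated the groups, this fit cannot tell group and macrophage level apart. The clock gene score also differed between arrays, at -2.69 to -1.16 on A-CRF 1 to 5, 0.59 to 1.54 on A-CRF 6 to 8 and -0.48 to 2.10 on Control arrays. A-CRF 6, 7 and 8 had the lowest Mmp2 and Mmp14 signals of their group. With this score as a covariate 15 probe sets passed, and the changes were 0.90 ± 0.22 for Ctsk (adjusted p = 0.14), 0.46 ± 0.13 for Mmp2 (0.22), 0.27 ± 0.10 for Mmp14 (0.35) and 0.01 ± 0.23 for Adamts1 (0.99). In that fit 5 of the 9 genes had an unadjusted p under 0.05, as without the score. Over the 31042 probe sets this held for 3355 with the score, against 4477 without it. The part of sampling time was not tested, since the labels give no time.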

How the data were processed

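RNA of 14 thoracic aorta samples (8 A-CRF, 6 Control), labelled from oligo-dT priming, was measured on 1-colour Affymetrix arrays per the labels' protocols. The values deposited by the authors were used as log2 signals per probe set. PLIER is named in the submitters' processing notes without a version, and the log base (inferred from the range), background correction and normalization between arrays are not stated in the sources used here. Of 31099 probe sets, 57 manufacturer controls were left out. Of the 31042 tested, 20826 had 1 symbol in the platform annotation, 436 several and 9780 none. All 16 member probe sets matched RefSeq by Entrez identifier with 0 symbols changed. The annotation names no genome build.

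The 2 groups were compared by limma (3.58.1, R 4.3.3) with lmFit and eBayes, group as the only factor, two-sided, Benjamini-Hochberg adjusted over all tested probe sets at 0.05, without a filter on dim probe sets. The fit, tested on simulated data, had 12 residual degrees of freedom. Probe set and protease-inhibitor differences were tested with exact permutation tests. The members, the wider list and the markers were chosen with earlier results of these data known. Of the wider list, all genes past the threshold and the largest other change per class were named, and for each risen member the 3 genes of highest group-centred correlation. Arrays have no sequencing depth, so the number of arrays limits precision. Alternatives were scale, normalization, dim probe sets, variance model, array weights, covariates, averaged probe sets and left-out arrays.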

Additional observations from a re-analysis of the deposited data

Results flagged for a closer look

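In 4 of 42 groups of values examined, 1 array lay apart from its group by a gap that was large relative to the group's range, and chance gives about 1 in 20. Mmp2 on probe set 1370301_at was 10.54 on A-CRF 4 against 9.62 to 10.03 on the other A-CRF arrays, a gap of 0.549 of the range. Adamts1 was 10.22 on Control 3 against 8.96 to 9.29 on the other Control arrays, a gap of 0.735 of the range. Without Control 3 the change of Adamts1 was -0.29 log2 units, which did not pass. Mmp2 minus Timp2 was -0.11 on Control 1 against -0.57 to -0.47 on the other Control arrays, a gap of 0.765 of the range. Adamts1 minus Timp3 was -0.74 on Control 3 against -1.99 to -1.64 on the other Control arrays, a gap of 0.722 of the range.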

How the results depend on the processing

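The count of probe sets past the threshold (636, of which 391 higher) was 1457 (755 higher) with array weights, 1041 (614) with the GAPDH covariate, 15 (11) with the clock gene score and 0 (0) with the macrophage level, and 307 to 979 (197 to 575) without single arrays. The members past the threshold (3) were 5 with dim probe sets left out and with array weights, 0 with the clock gene score and with the macrophage level, and 1 to 4 without single arrays, the 1 being Ctsk without Control 5 or Control 6. In the wider list the 11 higher genes were 0 with each of the clock and macrophage covariates and 6 to 12 without single arrays. With those covariates 20 and 8 of the 75 genes had an unadjusted p under 0.05, against 25 without a covariate. Over the 31042 probe sets these counts were 3355, 1325 and 4477. The 2 lower genes were 1 with the trend and robust options and without the 3 arrays of highest GAPDH difference, 0 with each of the clock and macrophage covariates, and 0 to 2 without single arrays.

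Among pair differences, Mmp2 minus Timp2 was 0.19 without the 3 arrays (past the threshold) and 0.18 to 0.30 without single arrays. The Mmp14 probe set difference was 0.17 without the 3 arrays (not past it) and 0.17 to 0.23 without single arrays, and that of Timp2 was 0.21 to 0.30. For Timp3 against 1375138_at it was 0.00057 with quantile normalization and -0.020 to 0.013 without single arrays, and against 1368989_at -0.17 without the 3 arrays (past the threshold) and -0.16 to 0.0065 without single arrays.

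Changes of opposite sign to the reported ones were small for Mmp9, at 0.00055 with quantile normalization, 0.00096 with array weights, 0.0024 without the 3 arrays and -0.0063 to 0.0043 without single arrays. Mmp3 was at -0.0039 with array weights, -0.021 with the clock gene score, -0.043 with the macrophage level and -0.0014 to 0.019 without single arrays. Adamts1 was at 0.013 with the clock gene score. With the macrophage level, Timp1 was at -0.26, Timp2 at -0.080, Timp3 at 0.18, Adam17 at -0.0028, Ctsb at -0.050, Cst3 at -0.0055, Mmp12 at -0.21, Ctsa at -0.29 and Serping1 at -0.53, none past the threshold. Among other probe sets, Mmp2 1369825_at was at 0.017 with array weights, 0.021 with the macrophage level and -0.019 to 0.019 without single arrays, and Mmp9 1369166_at at 0.020 with the macrophage level. Timp3 1375138_at was at 0.22 with the macrophage level, 1372926_at at 0.030 with array weights, 0.0035 without the 3 arrays, 0.14 with the clock gene score and 0.40 with the macrophage level. Timp3 1368989_at was at 0.034, 0.073, 0.25 and 0.29 in the same settings, 0.018 with the GAPDH covariate and -0.11 to 0.066 without single arrays. The causes were not tested. Of 864 values of named genes and probe sets, 690 kept direction and side of the threshold, 105 lost the call, 27 gained it and 42 had the opposite sign. Dim members gave no value with dim probe sets left out. No paired analysis was possible because the labels give no replicate numbers shared between the groups.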
